A study of Homo sapiens with 11 samples.

Results

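The genes described here encode the matrix metalloproteinases (MMP), the ADAMTS proteases and the tissue inhibitors of metalloproteinases (TIMP). They were chosen by symbol alone, as every row named MMP, ADAMTS or TIMP followed by a number (with a final A or B allowed for MMP). This gave 47 of the 60605 features in the table, namely 24 MMP, 19 ADAMTS and 4 TIMP genes. The RNA came from ARPE-19, an established cell line that derives from human retinal pigment epithelium (RPE). Stable lines had expressed an open reading frame (ORF) for 4 days, and 11 libraries of polyadenylated RNA were sequenced. The ORF was GFP, a fluorescent protein used as the control (3 libraries), or 1 of the transcription factors Oct4, Sox2 and Klf4 (2 libraries each), or all 3 factors together (OSK, 2 libraries). No other treatment is named. The species of the ORFs, the promoter that drives them and whether a line is a clone are not given in the sources used here, and the names of the factor libraries carry the letters mC, which the GFP names lack and which the labels do not explain. Nothing in the labels says that replicates were separate cultures, so p-values measure the spread between these libraries, which may be technical.

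MMPs and ADAMTS enzymes are zinc proteases that cut the extracellular matrix and proteins at the cell surface. TIMPs bind the active site of MMPs and of some ADAMTS and ADAM enzymes and block it. The RPE rests on Bruch's membrane, a sheet of matrix that it helps to renew, and mutations of TIMP3 cause Sorsby fundus dystrophy, an inherited disease of that membrane. RNA levels say nothing directly of activity, since most of these proteases are made as inactive precursors.

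Values are normalised counts, meaning reads per gene divided by a factor for each library. A gene was tested if its value was at least 10 in at least 2 libraries. This left 29 members (10 MMP, 16 ADAMTS and 3 TIMP genes) among 18828 tested features, and 18 members were not tested. Changes are differences of log2(value + 1) with their standard error (SE), from a limma fit over all 11 libraries. A gene was called changed at an adjusted p under 0.05 (Benjamini-Hochberg over all tested features), and rose or fell is written only of such calls. Recovered depth ran from 15053300 to 19791775 reads per library. GFP replicate 1 stood apart: 67.7% of 405 olfactory receptor genes, which should be silent in these cells, had a read there. The share was 23.0% in OSK replicate 1 and 4.94% to 8.15% in the other libraries. Among the members this shows mostly in low ones, but not only there: MMP24 was 479 in GFP replicate 1 and 847 and 853 in the other GFP libraries. Of the 18 untested members 10 had their highest value in GFP replicate 1, as had 6 of 8 tested members whose median outside that library was under 25, against 2 of the other 21. Of 14 RPE markers 11 reached the same filter, with TYRP1, PMEL, MITF, OTX2, KRT8 and KRT18 among them, while RPE65, TTR and DCT stayed at or near 0. The summed RPE markers were 33489 to 37191 in GFP, 18376 to 18856 in Oct4 and 21439 to 22127 in Sox2. They were 25726 to 28783 in Klf4 and 15845 to 16145 in OSK. KRT8 and KRT18 made up most of this sum in every library, so it says little of the other markers. TYR, TYRP1, PMEL, MITF, OTX2 and SERPINF1 had their lowest value in a Sox2 library. PMEL was 4094, 5281 and 6067 in GFP and 101 and 180 in Sox2. BEST1, RLBP1, LRAT, KRT8 and KRT18 had their lowest value in an OSK library.

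Promoter sequences are shown for 5 members on which the results turn: TIMP3, which changed in every line, MMP14, MMP11 and ADAMTS3, which fell in every line, and ADAMTS6, which had the largest rise of any member. Each run is the 250 bases before the RefSeq transcription start (GRCh38.p14), 5′ to 3′ on the gene's own strand. Capitals mark a core that KLF factors can bind (CACCC or GGGTG), the GC box (GGGCGG or CCGCCC) and a SOX core (CATTGT or ACAATG).
TIMP3: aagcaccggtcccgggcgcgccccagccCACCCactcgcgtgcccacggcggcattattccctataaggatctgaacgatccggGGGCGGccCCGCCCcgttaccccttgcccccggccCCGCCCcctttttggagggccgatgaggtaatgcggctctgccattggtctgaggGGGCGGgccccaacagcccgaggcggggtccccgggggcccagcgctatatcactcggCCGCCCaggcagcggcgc
MMP14: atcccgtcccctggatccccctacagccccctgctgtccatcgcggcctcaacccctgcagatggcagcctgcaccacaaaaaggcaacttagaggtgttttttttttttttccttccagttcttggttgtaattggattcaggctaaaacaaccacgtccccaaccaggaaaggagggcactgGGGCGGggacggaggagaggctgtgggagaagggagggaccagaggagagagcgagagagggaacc
MMP11: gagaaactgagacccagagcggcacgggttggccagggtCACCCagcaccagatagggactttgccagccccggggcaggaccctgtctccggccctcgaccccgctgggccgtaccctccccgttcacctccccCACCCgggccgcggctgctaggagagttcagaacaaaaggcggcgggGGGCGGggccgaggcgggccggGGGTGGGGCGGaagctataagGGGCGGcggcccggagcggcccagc
ADAMTS3: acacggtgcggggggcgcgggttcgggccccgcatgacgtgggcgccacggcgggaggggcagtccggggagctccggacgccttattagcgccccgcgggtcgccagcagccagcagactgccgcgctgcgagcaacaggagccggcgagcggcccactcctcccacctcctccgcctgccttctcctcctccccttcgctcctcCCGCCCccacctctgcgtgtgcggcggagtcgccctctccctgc
ADAMTS6: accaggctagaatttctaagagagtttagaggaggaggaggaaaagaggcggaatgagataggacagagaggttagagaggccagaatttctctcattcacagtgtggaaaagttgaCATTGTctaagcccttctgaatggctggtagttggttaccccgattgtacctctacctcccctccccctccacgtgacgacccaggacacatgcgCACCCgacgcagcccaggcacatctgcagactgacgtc
TIMP3 lies on the plus strand (chr22:32801455-32801704), as do MMP14 (chr14:22836335-22836584) and MMP11 (chr22:23772599-23772848). ADAMTS3 (chr4:72569222-72569471) and ADAMTS6 (chr5:65481921-65482170) lie on the minus strand. Of the 47 members 27 had an entry, with 28 windows in all. A KLF core was found in 16 of these 28 windows and in 54.7% of all 35116 windows of that length. For the GC box the figures were 19 of 28 and 42.6%, and for the SOX core 3 of 28 and 9.29%. The octamer that Oct4 binds (ATGCAAAT or ATTTGCAT) was in 0 of 28 windows against 1.63% of all, and the AP-1 site (TGAGTCA or TGACTCA) in 1 of 28 against 4.20%. The TIMP3 window holds 1 KLF core and 5 GC boxes. MMP11 has 3 of each, of which 1 pair overlaps (GGGTGGGGCGG). MMP14 and ADAMTS3 have 1 GC box each, and ADAMTS6 has 1 KLF core and 1 SOX core. These matches are a description of letters and not of binding, and short motifs occur in many windows. GC content was 72.4% for TIMP3, 56.8% for MMP14, 73.2% for MMP11, 75.2% for ADAMTS3 and 52.4% for ADAMTS6, with a median of 58.0% over all windows.

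The inhibitors were among the most abundant members, and their RNA moved in opposite directions in different lines. TIMP2 and TIMP3 fell with Oct4 and fell further with Sox2, and both rose with Klf4. In OSK, TIMP3 fell by a small amount and TIMP2 was not called. TIMP1 rose with Sox2, Klf4 and OSK. TIMP4 was too low to test, at 1.16 to 8.67 over the 11 libraries.

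TIMP3, a TIMP that binds to the matrix itself, had values of 34034, 33555 and 35718 in the GFP libraries, 13974 and 14799 in Oct4, 7013 and 6634 in Sox2, 65731 and 60994 in Klf4 and 25921 and 27063 in OSK. No 2 groups overlapped. The change from GFP was -1.26 (SE 0.07, adjusted p = 2.08e-09) for Oct4, -2.34 (SE 0.07, adjusted p = 1.6e-12) for Sox2, 0.88 (SE 0.07, adjusted p = 1.7e-07) for Klf4 and -0.38 (SE 0.07, adjusted p = 0.000623) for OSK. The widest gap between lines was between Sox2 and Klf4, at -3.21 (SE 0.08, adjusted p = 1.24e-13), and OSK lay between them, above Sox2 by 1.96 (SE 0.08, adjusted p = 4.15e-11) and below Klf4 by 1.26 (SE 0.08, adjusted p = 1.93e-08).

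TIMP2, which both inhibits MMP2 and helps MMP14 to activate it, had values of 23989.8, 26716 and 28035 in the GFP libraries, 15511 and 15083 in Oct4, 10717 and 10749 in Sox2, 59168 and 58100.2 in Klf4 and 24631 and 23739 in OSK. The order of the groups was that of TIMP3 (Sox2, Oct4, OSK, GFP, Klf4), though the OSK and GFP libraries overlapped. TIMP2 changed by -0.78 (SE 0.08, adjusted p = 8.62e-07) with Oct4, -1.29 (SE 0.08, adjusted p = 1.91e-09) with Sox2 and 1.16 (SE 0.08, adjusted p = 1.24e-08) with Klf4. For OSK the difference was -0.12 (SE 0.08, adjusted p = 0.265). It passed the threshold without GFP replicate 1 (-0.18, adjusted p = 0.0142), over alternatives from 0.0142 to 0.611.

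TIMP1, the soluble inhibitor that many cells raise on growth factor or cytokine signals, had values of 1379, 1419 and 1446 in the GFP libraries, 1404 and 1270.4 in Oct4, 2188 and 2207 in Sox2, 1699 and 1757 in Klf4 and 2469 and 2121 in OSK. All Sox2, Klf4 and OSK libraries were above all GFP libraries, and Oct4 overlapped GFP. The rise was 0.63 (SE 0.07, adjusted p = 3.98e-06) with Sox2, 0.29 (SE 0.07, adjusted p = 0.007) with Klf4 and 0.69 (SE 0.07, adjusted p = 1.82e-06) with OSK, and the Oct4 difference was -0.08 (SE 0.07, adjusted p = 0.42). The Klf4 call was lost without Klf4 replicate 2 (adjusted p = 0.0622, lowest over alternatives 0.00487). OSK and Sox2 differed by 0.06 (SE 0.08, adjusted p = 0.614), which was not called.

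**Figure D1:**
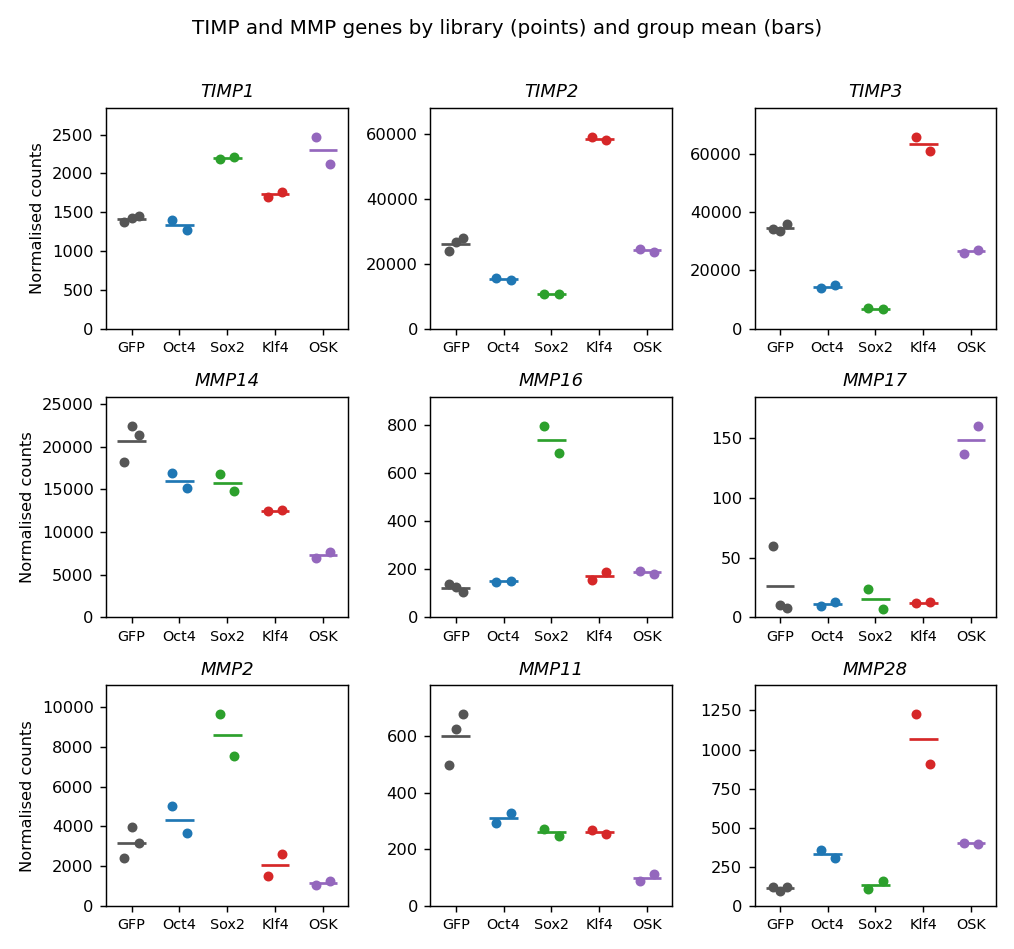
Normalised counts (linear axes from 0, a scale of its own for each gene) of TIMP and MMP genes in each library. Points are libraries and horizontal bars are group means. TIMP2 and TIMP3 are highest in Klf4 and lowest in Sox2, while MMP2 is highest in Sox2 and lowest in OSK.

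The membrane-bound MMPs act at the cell surface. Of the 6 genes for them, 4 encode transmembrane enzymes (MMP14, MMP15, MMP16 and MMP24) and 2 encode enzymes held by a lipid anchor (MMP17 and MMP25), and all 6 were tested. MMP14 fell in every line and most in OSK. MMP16 rose most with Sox2, and MMP17 rose in OSK and was not called in any single-factor line.

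MMP14, the main activator of MMP2 and itself a collagenase, was the most abundant protease of the family in every group: per kilobase of annotated exon its GFP mean was 4631, against 644 for MMP2 and 547 for MMP15. It had values of 18186, 22466 and 21367 in the GFP libraries, 16887 and 15103 in Oct4, 16755 and 14819.9 in Sox2, 12419 and 12575 in Klf4 and 6893 and 7621 in OSK. The Klf4 and OSK libraries were below all others, and the OSK libraries were the lowest. The change was -0.37 (SE 0.09, adjusted p = 0.00557) for Oct4, -0.39 (SE 0.09, adjusted p = 0.00328) for Sox2, -0.72 (SE 0.09, adjusted p = 1.8e-05) for Klf4 and -1.51 (SE 0.09, adjusted p = 3.71e-09) for OSK. The Oct4 call was lost without Oct4 replicate 2 and the Sox2 call without Sox2 replicate 2, with adjusted p over alternatives from 5.57e-05 to 0.0957 and from 2.93e-05 to 0.0703. OSK was also below each single-factor line, by 1.14 (SE 0.10, adjusted p = 2.23e-07) against Oct4, 1.12 (SE 0.10, adjusted p = 2.57e-07) against Sox2 and 0.79 (SE 0.10, adjusted p = 3.28e-05) against Klf4.

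MMP16, another transmembrane enzyme that can activate MMP2, had values of 137, 124 and 105 in the GFP libraries, 147 and 152 in Oct4, 798 and 682 in Sox2, 154 and 187 in Klf4 and 194 and 180.4 in OSK. The Sox2 libraries were far above all others, at 2.59 (SE 0.14, adjusted p = 6.05e-10) from GFP and a ratio of group means of 6.06. Smaller rises were called with Klf4 (0.48, SE 0.14, adjusted p = 0.0151) and OSK (0.62, SE 0.14, adjusted p = 0.00221). Sox2 exceeded OSK, which carries Sox2 too, by 1.97 (SE 0.15, adjusted p = 4.52e-08). The Klf4 call was lost without GFP replicate 3 or Klf4 replicate 2 (0.34 without the latter). With every library kept it was lost with the replicate number as a block (adjusted p = 0.0833, limma) and with only the groups compared (adjusted p = 0.0559, limma). The Oct4 difference was 0.30 (SE 0.14, adjusted p = 0.11), and it passed the threshold without GFP replicate 1 (0.39, adjusted p = 0.0446), with adjusted p up to 0.358.

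MMP17, the enzyme with a lipid anchor, had values of 59.6, 10.1 and 7.78 in the GFP libraries, 9.29 and 12.6 in Oct4, 23.6 and 6.85 in Sox2, 11.6 and 12.6 in Klf4 and 137 and 161 in OSK. The GFP mean rests on GFP replicate 1, which stands apart as described above. OSK was above GFP by 3.04 (SE 0.66, adjusted p = 0.00159), and by 3.92, adjusted p = 2.96e-06 without that library. Against the single-factor lines OSK was higher by 3.66 (SE 0.73, adjusted p = 0.000733) for Oct4, 3.42 (SE 0.73, adjusted p = 0.00128) for Sox2 and 3.51 (SE 0.73, adjusted p = 0.00222) for Klf4, and none of these contrasts uses the GFP means. The single-factor lines were not called against GFP, with differences of -0.61 to -0.38 that turned positive without GFP replicate 1.

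The other membrane enzymes moved less. MMP15 ran from 1323 to 2622 and fell with Oct4 (-0.79, SE 0.08, adjusted p = 8.52e-07), OSK (-0.54, SE 0.08, adjusted p = 3.9e-05) and Sox2 (-0.25, SE 0.08, adjusted p = 0.0191). The Sox2 call was lost without GFP replicate 3, Sox2 replicate 1 or Sox2 replicate 2 (adjusted p over alternatives 0.00133 to 0.131). MMP24, an enzyme known from neural tissue, ran from 351 to 1022 and fell with Sox2 (-0.89, SE 0.19, adjusted p = 0.00138) and OSK (-0.70, SE 0.19, adjusted p = 0.00839). Without OSK replicate 2 the OSK call was lost, with adjusted p from 2.46e-06 to 0.104 over alternatives, and without both GFP replicate 1 and OSK replicate 1 the change was -1.10. MMP25, best known from neutrophils, ran from 26.4 to 98.3 and fell in OSK (-1.24, SE 0.27, adjusted p = 0.00141). It was lower in OSK than in Oct4 (-1.35, SE 0.29, adjusted p = 0.00145) and Sox2 (-1.31, SE 0.29, adjusted p = 0.00186), while the difference from Klf4 was not called (-0.78, SE 0.29, adjusted p = 0.0701). A list of 7 leukocyte markers, of which 2 reached the filter, had summed levels of 184 to 221 in GFP, 94.98 to 101 in Oct4, 51.6 to 70.2 in Sox2, 165 to 290.3 in Klf4 and 48.4 to 94.3 in OSK. CSF1R gave most of the sum in every library but GFP replicate 1, at 95.3, 197 and 183 in GFP and 74.8 and 44.0 in OSK, while PTPRC was at most 2.24 in any library. The part of these markers in the MMP25 result was not tested. MMP25 and MMP24 are uncertain, because 35.2% and 18.1% of their exon bases overlap the opposite-strand genes MMP25-AS1 and MMP24OS and the strand setting of the counting is not given in the sources used here. MMP25-AS1 had group means of 267 in GFP and 93.9 in OSK.

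Of the gelatinases, which digest denatured collagen and type IV collagen of basement membranes, MMP2 was abundant and MMP9 was not. MMP2 rose with Sox2 and fell in OSK, so that it was higher in Sox2 than in OSK by 2.93 (SE 0.24, adjusted p = 6.62e-08), although both carry Sox2. MMP9 was 0 to 23.8 over the 11 libraries, with the highest value in GFP replicate 1 and 8.67 as the highest elsewhere.

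MMP2 had values of 2395, 3989 and 3151 in the GFP libraries, 5016 and 3658 in Oct4, 9642 and 7544 in Sox2, 1496 and 2615 in Klf4 and 1025 and 1224 in OSK. The Sox2 libraries were above all others and the OSK libraries below all others, and replicates differed more than for the TIMPs. The change was 1.45 (SE 0.22, adjusted p = 4.67e-05) with Sox2 and -1.47 (SE 0.22, adjusted p = 4.61e-05) with OSK, while the Oct4 difference was 0.46 (SE 0.22, adjusted p = 0.11). The Oct4 difference passed the threshold without GFP replicate 2 (0.64, adjusted p = 0.0308), with adjusted p up to 0.583 over alternatives. The Klf4 fall (-0.65, SE 0.22, adjusted p = 0.029) was unstable: it was -0.25, adjusted p = 0.49 without Klf4 replicate 1 and -1.06, adjusted p = 0.00304 without Klf4 replicate 2. It was also lost without GFP replicate 2 or GFP replicate 3. With every library kept it was lost under edgeR with TMM (adjusted p = 0.0506) and DESeq2 (adjusted p = 0.144). The same held with no filter and with the replicate number as a block, and it was lost with only the groups compared. OSK fell below Klf4 by 0.82 (SE 0.24, adjusted p = 0.0207). This call was lost under DESeq2 (adjusted p = 0.0693) and with no filter (adjusted p = 0.0783, limma). It was also lost without Klf4 replicate 2, OSK replicate 1 or OSK replicate 2 (changes over alternatives from -1.22 to -0.42). A list of 7 fibroblast markers had summed levels of 3264 to 5221 in GFP, 3291 to 4613 in Oct4, 7508 to 9085 in Sox2, 1068 to 1506 in Klf4 and 659 to 945 in OSK. Of the 7, 5 reached the filter, COL1A1 made up most of the sum, and DCN and LUM stayed at or under 12.3 in every library. The other markers did not follow COL1A1 throughout. FAP was highest in Oct4 (896 and 699, with 655 and 438 in Sox2) and lowest in OSK (41.2 and 78.1). THY1 was lowest in Sox2 (22.4 and 16.3), and COL1A2 ran from 10.3 to 27.8. The part of these markers in the MMP2 result was not tested, and in bulk RNA fewer cells of a type and less RNA per cell cannot be told apart.

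The level of MMP2 was set against that of its inhibitor TIMP2, per kilobase of exon (GENCODE release 29) and within each library. The MMP2 to TIMP2 ratio was 0.114, 0.170 and 0.128 in GFP, 0.369 and 0.277 in Oct4, 1.03 and 0.801 in Sox2, 0.0289 and 0.0514 in Klf4 and 0.0475 and 0.0589 in OSK. Only in Sox2 replicate 1 did MMP2 exceed TIMP2, and the Klf4 and OSK libraries were below all GFP libraries. The MMP14 to TIMP3 ratio was 0.551, 0.690 and 0.617 in GFP, 1.25 and 1.05 in Oct4, 2.46 and 2.30 in Sox2, 0.195 and 0.213 in Klf4 and 0.274 and 0.290 in OSK. These ratios are given as a description with no test, since they combine the changes already reported for each gene.

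**Figure D2:**
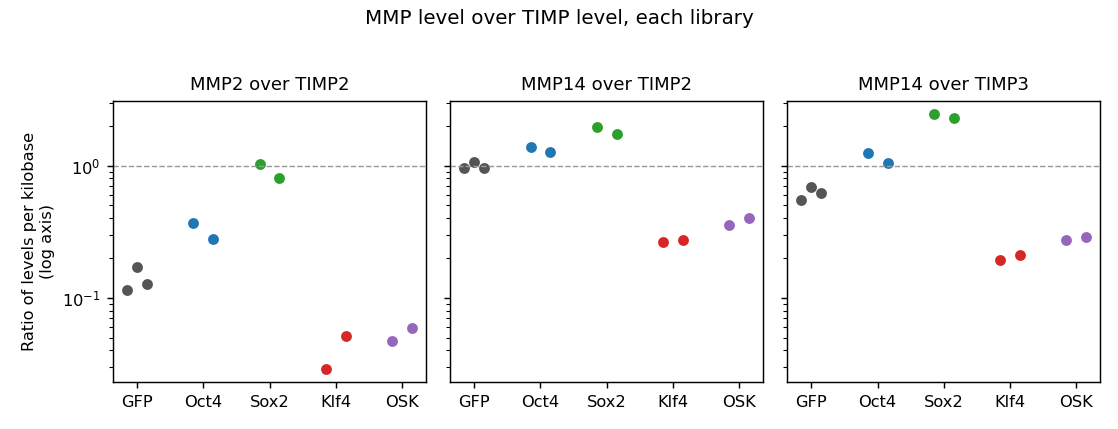
Ratio of an MMP level to a TIMP level per kilobase of exon in each library (log axis, dashed line at 1). Points are libraries. The MMP2 to TIMP2 ratio is highest in the Sox2 libraries (1.03 and 0.801) and lowest in Klf4 (0.0289 and 0.0514) and OSK (0.0475 and 0.0589).

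Of the 3 secreted MMPs that furin can activate inside the cell (MMP11, MMP28 and MMP21), MMP11 fell in every line, MMP28 rose with Oct4, Klf4 and OSK, and MMP21 was low. MMP11, or stromelysin 3, had values of 498, 626 and 678 in the GFP libraries, 291 and 328 in Oct4, 273 and 247 in Sox2, 269.5 and 254 in Klf4 and 86.7 and 113 in OSK. The GFP libraries were above all others and the OSK libraries below all others. It fell by 0.94 (SE 0.14, adjusted p = 7.05e-05) with Oct4, 1.19 (SE 0.14, adjusted p = 4.66e-06) with Sox2, 1.18 (SE 0.14, adjusted p = 8.44e-06) with Klf4 and 2.57 (SE 0.14, adjusted p = 1.05e-09) with OSK. The differences among Oct4, Sox2 and Klf4 were not called, at 0.25 for Oct4 against Sox2 (adjusted p = 0.247), and OSK was lower than Klf4 by 1.39 (SE 0.16, adjusted p = 7.06e-06).

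MMP28, or epilysin, an enzyme known from epithelial cells, had values of 119, 93.1 and 122 in the GFP libraries, 358 and 303 in Oct4, 110.0 and 161 in Sox2, 1226 and 906 in Klf4 and 404 and 396 in OSK. Klf4 libraries were the highest and Oct4 and OSK lay between them and GFP. The rise was 1.57 (SE 0.17, adjusted p = 2.29e-06) with Oct4, 3.24 (SE 0.17, adjusted p = 1.08e-09) with Klf4 and 1.85 (SE 0.17, adjusted p = 3.36e-07) with OSK, with a ratio of group means of 9.58 for Klf4. OSK and Oct4 differed by 0.28 (SE 0.19, adjusted p = 0.262), which was not called, and OSK was below Klf4 by 1.40 (SE 0.19, adjusted p = 4.47e-05). For Sox2 the difference was 0.27 (SE 0.17, adjusted p = 0.237), and it passed the threshold without Sox2 replicate 1 (0.54, adjusted p = 0.0417) but not otherwise, with adjusted p up to 0.984. MMP21 ran from 2.31 to 29.8 and was not called in any line.

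The secreted collagenases, stromelysins and matrilysin that lie together on chromosome 11 were at or near 0. This cluster of 9 genes (MMP1, MMP3, MMP7, MMP8, MMP10, MMP12, MMP13, MMP20 and MMP27, from 102520508 to 102955732 in GRCh38.p14) includes interstitial collagenase MMP1 and stromelysin 1, MMP3. The summed value was 20.9, 0 and 0 in GFP, 8.13 and 11.4 in Oct4, 24.7 and 6.85 in Sox2, 0 and 0 in Klf4 and 5.41 and 1.10 in OSK. The highest single value was MMP10 at 15.7 in Sox2 replicate 1, with 2.57 in the other Sox2 library. MMP3 was 8.13 and 11.45 in the Oct4 libraries, 3.97 in GFP replicate 1, 1.08 in OSK replicate 1 and 0 in the other 7. In a library 3 reads equal a value of 2.57 to 3.48, so a value of 0 allows up to about that level (counting error only). The remaining untested members were MMP9, MMP19, MMP23A, MMP23B, MMP26, ADAMTS16, ADAMTS18, ADAMTS20 and TIMP4. MMP23A and MMP23B are near-identical copies, so reads may be split between them.

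**Figure D3:**
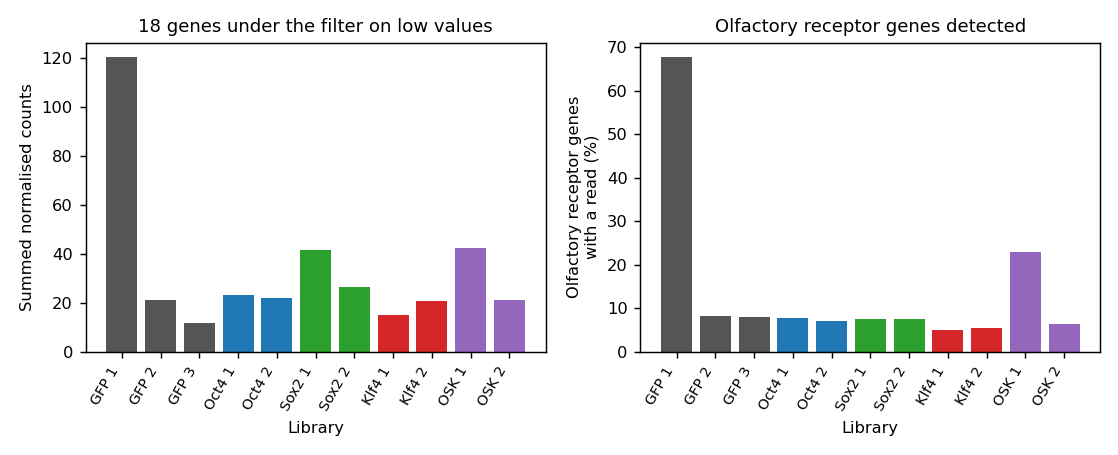
Left, summed normalised counts of the 18 members under the filter in each library. Right, percent of 405 olfactory receptor genes with a read in the same libraries. GFP replicate 1 is highest in both, at 120 and 67.7%.

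The ADAMTS family is ordered below by substrate. Among the proteoglycanases, which cut aggrecan and versican, ADAMTS5 fell in the Sox2, Klf4 and OSK lines and rose with Oct4, ADAMTS15 rose with Klf4 and fell with Oct4 and OSK, and ADAMTS9 rose most in OSK. Of the 7 in this group 6 were tested (ADAMTS20 was not), and ADAMTS4 and ADAMTS8 were low.

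ADAMTS5, a main aggrecanase that TIMP3 inhibits, had values of 1534, 1962 and 1975 in the GFP libraries, 2762 and 3292 in Oct4, 578 and 665 in Sox2, 634 and 655 in Klf4 and 544 and 624 in OSK. The Sox2, Klf4 and OSK libraries lay together, well under GFP, and the Oct4 libraries were above GFP. The change was 0.73 (SE 0.11, adjusted p = 8.1e-05) for Oct4, -1.55 (SE 0.11, adjusted p = 1.85e-08) for Sox2, -1.49 (SE 0.11, adjusted p = 5.56e-08) for Klf4 and -1.64 (SE 0.11, adjusted p = 1.19e-08) for OSK. OSK differed from Sox2 by -0.09 (SE 0.12, adjusted p = 0.607) and from Klf4 by -0.14 (SE 0.12, adjusted p = 0.476), neither called, and from Oct4 by -2.37 (SE 0.12, adjusted p = 5.02e-10).

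ADAMTS1, which is on chromosome 21 as is ADAMTS5, had values of 439.9, 414 and 491 in the GFP libraries, 514 and 703 in Oct4, 172 and 141 in Sox2, 394 and 368 in Klf4 and 675 and 557 in OSK. The Sox2 libraries were below all others. The fall with Sox2 was -1.52 (SE 0.14, adjusted p = 2.06e-07), and the rises with Oct4 (0.43, SE 0.14, adjusted p = 0.0219) and OSK (0.45, SE 0.14, adjusted p = 0.0142) were small. The Oct4 call was lost without GFP replicate 2 or Oct4 replicate 2 (0.20 without the latter, 0.65 without Oct4 replicate 1), and the OSK call without GFP replicate 2 or OSK replicate 1. Over alternatives the adjusted p ran from 0.00479 to 0.365 for Oct4 and from 0.00724 to 0.219 for OSK. Klf4 was not called (-0.23, SE 0.14, adjusted p = 0.219).

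ADAMTS15 had values of 816, 1025 and 779 in the GFP libraries, 531 and 438 in Oct4, 1174 and 1093 in Sox2, 3283 and 2956 in Klf4 and 489 and 492 in OSK. It was highest in Klf4, and the Oct4 and OSK libraries were below all others. The change was 1.84 (SE 0.11, adjusted p = 4.03e-09) with Klf4, -0.84 (SE 0.11, adjusted p = 1.6e-05) with Oct4 and -0.82 (SE 0.11, adjusted p = 1.86e-05) with OSK. Sox2 gave 0.39 (SE 0.11, adjusted p = 0.0102), a call lost without Sox2 replicate 1 and with the replicate number as a block (adjusted p = 0.0579, over alternatives from 0.000686 to 0.0986). OSK was below Klf4 by 2.67 (SE 0.12, adjusted p = 5.93e-10).

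ADAMTS9, a versican-cleaving enzyme, had values of 83.4, 52.6 and 61.2 in the GFP libraries, 83.6 and 118 in Oct4, 56.1 and 50.5 in Sox2, 97.2 and 91.4 in Klf4 and 454 and 356 in OSK. The OSK libraries were above all others and the other groups lay between 50.5 and 118. The rise in OSK was 2.62 (SE 0.21, adjusted p = 7.78e-08), and OSK was above Oct4 by 2.01 (SE 0.23, adjusted p = 4.08e-06), above Sox2 by 2.89 (SE 0.23, adjusted p = 6.59e-08) and above Klf4 by 2.08 (SE 0.23, adjusted p = 7.27e-06). ADAMTS9 rose by 0.61 (SE 0.21, adjusted p = 0.0338) with Oct4. This call was lost under DESeq2 (adjusted p = 0.0659), with no filter, with the replicate number as a block and with only the groups compared. It was also lost without GFP replicate 2, GFP replicate 3 or Oct4 replicate 2 (0.37 without the last). Klf4 differed by 0.54 (SE 0.21, adjusted p = 0.0651) and passed the threshold without GFP replicate 1 (0.72, adjusted p = 0.0117), with adjusted p up to 0.236. An opposite-strand gene, ADAMTS9-AS1, overlaps 1.63% of its exon bases. ADAMTS4 ran from 0.860 to 53.6 and ADAMTS8 from 1.12 to 26.8, with neither called in any line.

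**Figure D4:**
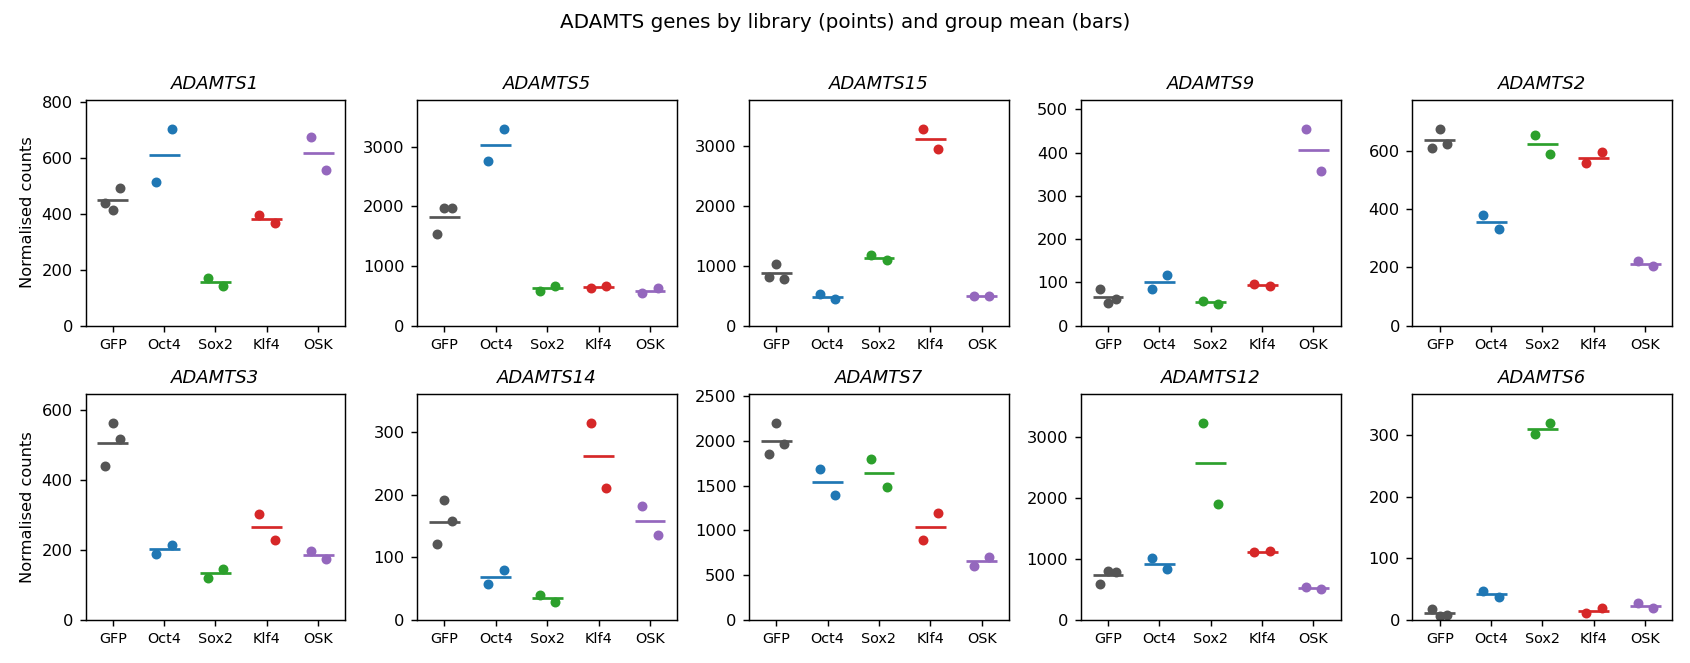
Normalised counts (linear axes from 0, a scale of its own for each gene) of ADAMTS genes in each library. Points are libraries and horizontal bars are group means. ADAMTS9 is highest in OSK, ADAMTS15 in Klf4, ADAMTS6 and ADAMTS12 in Sox2 and ADAMTS5 in Oct4.

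The procollagen N-proteinases ADAMTS2, ADAMTS3 and ADAMTS14 remove the amino-terminal propeptide of fibrillar procollagens. ADAMTS3 fell in every line, ADAMTS2 fell with Oct4 and OSK, and ADAMTS14 fell with Oct4 and Sox2. ADAMTS3, which also takes part in activating the lymphatic growth factor VEGF-C, had values of 439.9, 561 and 518 in the GFP libraries, 189 and 213 in Oct4, 120.0 and 146 in Sox2, 302 and 229 in Klf4 and 196 and 174 in OSK. The GFP libraries were above all others. The fall was 1.32 (SE 0.15, adjusted p = 2.81e-06) with Oct4, 1.92 (SE 0.15, adjusted p = 3.25e-08) with Sox2, 0.94 (SE 0.15, adjusted p = 0.000119) with Klf4 and 1.44 (SE 0.15, adjusted p = 9.82e-07) with OSK. The difference of OSK from Oct4 was not called (-0.12, SE 0.16, adjusted p = 0.601).

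ADAMTS2 had values of 609, 675 and 624 in the GFP libraries, 381 and 331 in Oct4, 654 and 590.0 in Sox2, 558 and 596 in Klf4 and 220.1 and 206 in OSK. The OSK libraries were lowest and the Oct4 libraries next, and Sox2 and Klf4 overlapped or adjoined GFP. The change was -0.84 (SE 0.10, adjusted p = 3.7e-06) with Oct4 and -1.57 (SE 0.10, adjusted p = 2.85e-09) with OSK. It was -0.03 (SE 0.10, adjusted p = 0.821) with Sox2 and -0.14 (SE 0.10, adjusted p = 0.294) with Klf4, neither called. OSK was below Oct4 by 0.74 (SE 0.10, adjusted p = 3.19e-05).

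ADAMTS14 had values of 122, 191 and 157 in the GFP libraries, 58.1 and 80.1 in Oct4, 40.4 and 29.1 in Sox2, 315 and 211 in Klf4 and 182 and 135 in OSK. The Klf4 libraries were above all others, the Sox2 libraries were the lowest, and OSK overlapped GFP. The change was -1.17 (SE 0.24, adjusted p = 0.00113) with Oct4, -2.14 (SE 0.24, adjusted p = 2.37e-06) with Sox2, 0.74 (SE 0.24, adjusted p = 0.0265) with Klf4 and 0.02 (SE 0.24, adjusted p = 0.953) with OSK, the last not called. The Klf4 call was lost without GFP replicate 1, GFP replicate 3 or Klf4 replicate 1 (0.45 without the last), with adjusted p over alternatives from 0.0142 to 0.317.

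ADAMTS7 and ADAMTS12 cut cartilage oligomeric matrix protein (COMP). ADAMTS7 fell with Oct4, Klf4 and OSK. ADAMTS12 rose with Sox2 and Klf4 and fell in OSK, so that both fell in OSK and the calls were opposite with Klf4. ADAMTS7 had values of 1852, 2195 and 1961 in the GFP libraries, 1687 and 1397 in Oct4, 1793 and 1483 in Sox2, 889 and 1192 in Klf4 and 597 and 706 in OSK. The OSK libraries were below all others, followed by Klf4. The change was -0.96 (SE 0.13, adjusted p = 2.25e-05) with Klf4 and -1.62 (SE 0.13, adjusted p = 4.72e-08) with OSK. It was -0.38 (SE 0.13, adjusted p = 0.0272) with Oct4, lost without GFP replicate 2, GFP replicate 3 or Oct4 replicate 2 (-0.24 without the last, adjusted p over alternatives 0.0115 to 0.289). With Sox2 it was -0.29 (SE 0.13, adjusted p = 0.077), and it passed the threshold without GFP replicate 1 or either Klf4 library (adjusted p over alternatives 0.0345 to 0.504). The human genome holds ADAMTS7 pseudogenes, so reads may be split: the copies ADAMTS7P1, ADAMTS7P3 and ADAMTS7P4 reached at most 71.5, 35.8 and 52.6.

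ADAMTS12 had values of 594, 800.2 and 785 in the GFP libraries, 1019.5 and 826 in Oct4, 3220.0 and 1905 in Sox2, 1114 and 1123 in Klf4 and 539.9 and 507 in OSK. The Sox2 libraries were above all others but differed from each other. The change was 1.78 (SE 0.17, adjusted p = 4.08e-07) with Sox2, 0.63 (SE 0.17, adjusted p = 0.00881) with Klf4 and -0.46 (SE 0.17, adjusted p = 0.0424) with OSK, and the Oct4 difference was 0.35 (SE 0.17, adjusted p = 0.124). The last passed the threshold when either Sox2 library was left out (adjusted p over alternatives 0.0358 to 0.555). The Klf4 call was lost without Klf4 replicate 1 or Klf4 replicate 2 (adjusted p over alternatives 0.000963 to 0.0553). The OSK call was lost in 11 alternatives, with changes over alternatives from -0.64 to -0.38. Among them were edgeR with TMM (adjusted p = 0.0726), DESeq2 (adjusted p = 0.146), no filter and the replicate number as a block. The others included leaving out GFP replicate 2, GFP replicate 3, either Klf4 library or either OSK library. The fibroblast marker sums given beside MMP2, which are mostly COL1A1, were also highest in Sox2 and lowest in OSK. FAP was highest in Oct4 instead, and THY1 was lowest in Sox2. The part of these markers in the ADAMTS12 result was not tested.

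ADAMTS6, known for cutting fibrillin microfibril components, had values of 17.9, 6.07 and 7.78 in the GFP libraries, 47.6 and 36.6 in Oct4, 302 and 319 in Sox2, 10.4 and 19.4 in Klf4 and 27.1 and 18.7 in OSK. The Sox2 libraries were far above all others and the Oct4 libraries next. The rise was 4.88 (SE 0.41, adjusted p = 8.93e-08) with Sox2, a ratio of group means of 29.4, and 2.02 (SE 0.41, adjusted p = 0.000997) with Oct4. OSK gave 1.16 (SE 0.41, adjusted p = 0.0339), which was lost without GFP replicate 2, GFP replicate 3, either Sox2 library or either OSK library (adjusted p over alternatives 0.00153 to 0.226). OSK was below Sox2 by 3.73 (SE 0.45, adjusted p = 5.6e-06). Klf4 was at 0.53 (SE 0.41, adjusted p = 0.351) and passed the threshold without GFP replicate 1 (0.95, adjusted p = 0.0453), with adjusted p up to 0.899.

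The remaining tested ADAMTS genes changed little or were low. ADAMTS13, which cuts von Willebrand factor, ran from 169 to 270.1 and fell with Sox2 (-0.57, SE 0.14, adjusted p = 0.00376) and OSK (-0.45, SE 0.14, adjusted p = 0.0191), the OSK call being lost without OSK replicate 2 (-0.27, adjusted p over alternatives 0.0116 to 0.262). ADAMTS10 ran from 1.14 to 76.5, its highest value in GFP replicate 1. A fall with Klf4 (-2.55, SE 0.93, adjusted p = 0.045) became -1.50, adjusted p = 0.133 without that library, and it was also lost without GFP replicate 2 or any single library of Oct4, Sox2 or Klf4 (adjusted p 0.00275 to 0.247). ADAMTS17 reached 41.7 and ADAMTS19 12.9, and neither was called in any line.

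Counted over the 29 tested members, 15 were called with Oct4, where 37.3% of all tested features were called. They were 5 higher and 10 lower, beside 20.1% and 17.2% of all. With Sox2, 17 were called against 41.6% of all, 6 higher and 11 lower beside 21.7% and 19.9%. With Klf4 it was 15 against 33.5%, 8 higher and 7 lower beside 17.6% and 16.0%. In OSK it was 21 against 39.7%, 7 higher and 14 lower beside 19.7% and 20.0%. A difference anywhere among the 5 groups was called for 23 of 29, against 65.7% of all. The median change of the members was -0.34 for Oct4, -0.57 for Sox2, -0.20 for Klf4 and -0.46 for OSK, and that of all tested features lay between -0.02 and -0.01. The medians of the members include 8 low ones, whose median value outside GFP replicate 1 was under 25. Of these, 6 had their highest value in that library, which lowers their change from GFP. The medians were not recomputed without these low members. By family, OSK lowered 6 and raised 3 of the 10 MMP genes, lowered 7 and raised 3 of the 16 ADAMTS genes, and lowered 1 and raised 1 of the 3 TIMP genes. These 4 comparisons share the GFP libraries, so their calls are not independent of each other.

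Across the lines, 3 members (ADAMTS3, MMP11 and MMP14) fell in all 4, beside 3.47% of all features, and 0 rose in all 4, beside 3.36%. The smallest of these falls, MMP14 with Oct4 and with Sox2, are those that a left-out library could take below the threshold. Calls in all 4 lines, in either direction, were made for 6 members (these 3 and ADAMTS5, ADAMTS15 and TIMP3), beside 10.3%. Calls in both directions were found for 8 members (ADAMTS1, ADAMTS5, ADAMTS12, ADAMTS14, ADAMTS15, MMP2, TIMP2 and TIMP3), beside 12.9%. In no line was ADAMTS4, ADAMTS8, ADAMTS17, ADAMTS19 or MMP21 called. OSK was lower than GFP and than each single-factor line for 6 members (ADAMTS2, ADAMTS7, ADAMTS12, MMP2, MMP11 and MMP14), beside 3.35% of all features. Of these, the calls of ADAMTS12 against GFP and of MMP2 against Klf4 depend on the test used and on single libraries, as given above. OSK was higher than GFP and than each single-factor line for 2 (ADAMTS9 and MMP17), beside 2.77%.

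Against the single-factor lines, OSK differed from Oct4 for 15 members, beside 40.3% of all features (7 higher and 8 lower, beside 18.4% and 21.9%). It differed from Sox2 for 19, beside 40.5% (8 higher and 11 lower, beside 20.0% and 20.5%), and from Klf4 for 17, beside 21.5% (4 higher and 13 lower, beside 9.56% and 11.9%). Of the members lower in OSK than in Klf4, TIMP2, TIMP3, ADAMTS12, ADAMTS15 and MMP28 were also members that Klf4 alone had raised. MMP2, MMP11, MMP14, ADAMTS3 and ADAMTS7 were members that Klf4 alone had lowered, and ADAMTS2, MMP15 and MMP24 were not called with Klf4. Both comparisons use the Klf4 libraries, so they are not independent, and the share of all features with these patterns was not counted. Between Oct4 and Sox2, 16 members differed, beside 33.4% (8 higher and 8 lower in Oct4, beside 18.0% and 15.4%). Between Oct4 and Klf4 it was 15, beside 41.7% (6 higher and 9 lower in Oct4, beside 21.8% and 20.0%), and between Sox2 and Klf4 it was 16, beside 40.8% (7 higher and 9 lower in Sox2, beside 20.1% and 20.7%).

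**Figure D5:**
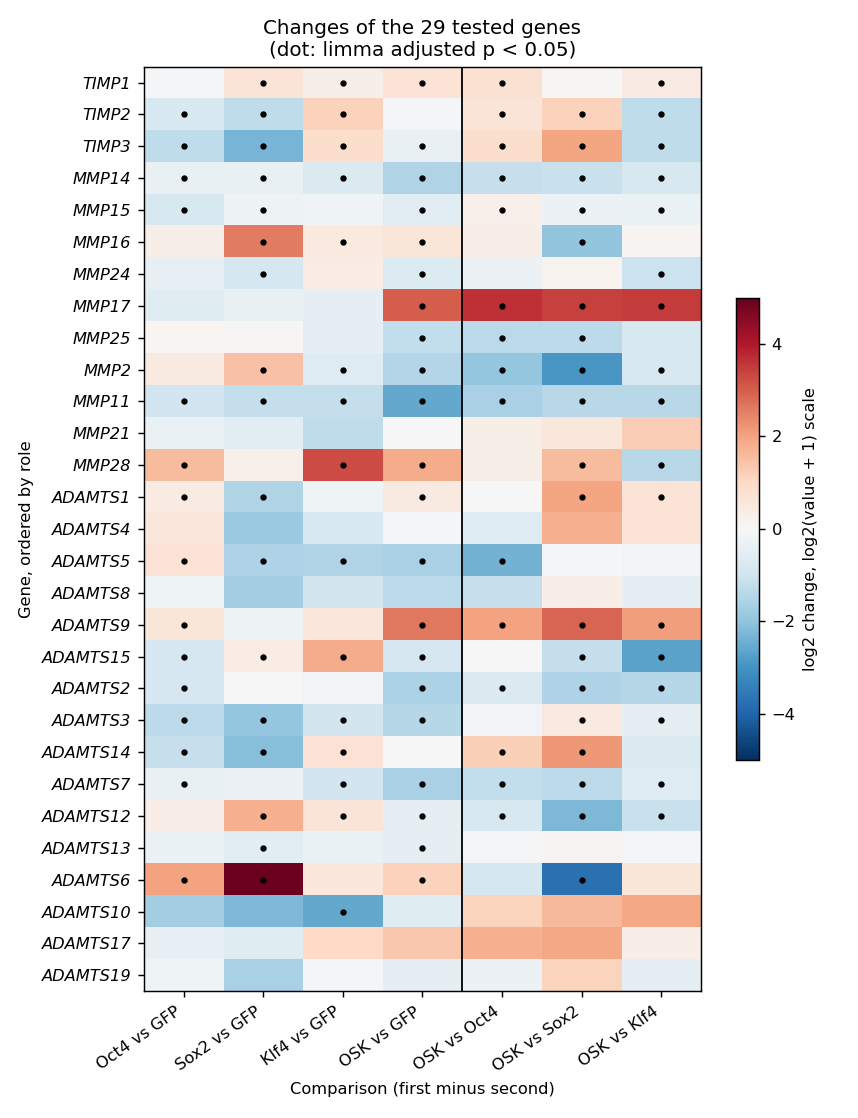
Heat map of log2 changes, on the log2(value + 1) scale, of the 29 tested members. Columns are the 4 comparisons with GFP and, right of the line, OSK against each single factor; a dot marks an adjusted p under 0.05. MMP11, MMP14 and ADAMTS3 are lower in all 4 comparisons with GFP.

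Other genes of the same pathway were counted from lists made by function. Their counts stand beside the shares of all tested features that were called higher and lower, which were 20.1% and 17.2% with Oct4, 21.7% and 19.9% with Sox2, 17.6% and 16.0% with Klf4, and 19.7% and 20.0% in OSK. The lists are short, and nothing is read as particular to a list. Of 20 tested inhibitors and activators, 8 rose and 3 fell with Oct4 (median change 0.13), 12 and 4 with Sox2 (0.60), 6 and 7 with Klf4 (-0.34) and 6 and 5 in OSK (-0.0021). PLAT, tissue plasminogen activator, rose by 2.71 (SE 0.25, adjusted p = 2.59e-07) with Sox2, 3.77 (SE 0.25, adjusted p = 1.18e-08) with Klf4 and 2.27 (SE 0.25, adjusted p = 2.2e-06) in OSK. PLAUR, the urokinase receptor, rose by 2.75 (SE 0.21, adjusted p = 6.95e-08) with Klf4 and 2.15 (SE 0.21, adjusted p = 6.84e-07) in OSK. SERPINE2, an inhibitor on this list, rose by 2.94 (SE 0.19, adjusted p = 5.21e-09) with Sox2.

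Of 12 tested ADAM proteases, membrane relatives that shed surface proteins, 6 rose and 2 fell with Oct4, 6 and 1 with Sox2, 4 and 3 with Klf4, and 4 and 1 in OSK. ADAM19 rose by 5.17 (SE 0.09, adjusted p = 4.58e-15) with Oct4 and 2.43 (SE 0.09, adjusted p = 6.97e-12) with Sox2, ADAM33 by 5.89 (SE 0.56, adjusted p = 6.12e-07) with Klf4, and ADAM15 by 2.81 (SE 0.10, adjusted p = 1.1e-11) with Klf4 and 2.00 (SE 0.10, adjusted p = 2.54e-10) in OSK. Of 6 tested ADAMTS-like proteins, which lack the protease domain, 2 rose and 2 fell with Oct4, 0 and 2 with Sox2, 4 and 0 with Klf4, and 1 and 2 in OSK. ADAMTSL4 changed by -2.14 (SE 0.08, adjusted p = 1.1e-11) with Sox2 and 1.41 (SE 0.08, adjusted p = 2.56e-09) with Klf4. Its changes were smaller with Oct4 (-0.42, SE 0.08, adjusted p = 0.000627) and in OSK (-0.60, SE 0.08, adjusted p = 1.94e-05).

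Of 34 tested matrix substrates, 12 rose and 6 fell with Oct4 (median change 0.05), 11 and 6 with Sox2 (-0.14), 9 and 11 with Klf4 (-0.33) and 5 and 15 in OSK (-0.54). FN1, fibronectin, rose by 3.31 (SE 0.17, adjusted p = 3.9e-10) with Oct4 and 2.66 (SE 0.17, adjusted p = 3.53e-09) with Sox2. COL1A1, a type I collagen chain, fell by 1.72 (SE 0.21, adjusted p = 7.72e-06) with Klf4 and 2.50 (SE 0.21, adjusted p = 8.5e-08) in OSK. Of 10 tested genes of procollagen processing and crosslinking, 4 rose and 0 fell with Oct4, 3 and 0 with Sox2, 3 and 4 with Klf4, and 4 and 5 in OSK. BMP1, the procollagen C-proteinase, rose by 0.94 (SE 0.10, adjusted p = 1.95e-06) with Sox2, 2.29 (SE 0.10, adjusted p = 1.83e-10) with Klf4 and 1.63 (SE 0.10, adjusted p = 4.92e-09) in OSK. LOX, which crosslinks collagen, rose by 1.96 (SE 0.14, adjusted p = 1.94e-08) with Oct4, 1.81 (SE 0.14, adjusted p = 3.55e-08) with Sox2 and 1.18 (SE 0.14, adjusted p = 5.16e-06) in OSK.

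Of 22 tested transcription factors known to act on MMP promoters, 9 rose and 9 fell with Oct4, 10 and 8 with Sox2, 5 and 9 with Klf4, and 6 and 10 in OSK. EGR1, an immediate early factor, fell by 2.51 (SE 0.22, adjusted p = 1.92e-07) with Oct4, 4.14 (SE 0.22, adjusted p = 1.11e-09) with Klf4 and 3.62 (SE 0.22, adjusted p = 2.71e-09) in OSK. RUNX2, a bone factor, rose by 2.40 (SE 0.17, adjusted p = 1.93e-08) with Oct4 and 2.58 (SE 0.17, adjusted p = 5.94e-09) with Sox2. Genes of the AP-1 factor moved in both directions. FOS fell by 2.55 (SE 0.16, adjusted p = 3.88e-09) with Oct4 and 1.82 (SE 0.16, adjusted p = 1.33e-07) with Sox2, and JUN fell by 2.13 (SE 0.11, adjusted p = 5.63e-10) in OSK. With Klf4, JUNB rose by 1.91 (SE 0.13, adjusted p = 1.39e-08) and FOSL1 fell by 2.28 (SE 0.19, adjusted p = 1.93e-07). FOSL1 also fell in OSK, by 1.77 (SE 0.19, adjusted p = 2.16e-06).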

How the data were processed

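Per the labels' protocols, RNA was extracted in TRIzol, selected by oligo(dT) and built into libraries by a NEBNext Ultra II RNA kit. The submitters' processing notes name STAR 2.7.1a and featureCounts 1.6.2, and list both a human and a mouse build without saying which was used for what. The annotation, the use of strand and the step that normalised the counts are not given in the sources used here. The values deposited are normalised counts, a signal: as their steps show, gene counts were divided by 1 factor per library, then rounded to 2 decimals. Dividing by the value of 1 read gave whole reads for 100.0% of values up to 200 (tolerance 0.01) in every library. For all values the share was also 100.0%, at a wider tolerance. These recovered reads gave the depth per library and served edgeR 4.0.16, DESeq2 1.42.0 and a limma fit with TMM scaling as alternatives. In GFP replicates 1 and 2 that value is so near 1 (0.993 and 1.01) that the recovery rests on fewer values.

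The main test was limma 3.58.1 in R 4.3.3 (lmFit and eBayes with trend) on log2(value + 1), with a mean per group over all 11 libraries, no block, and Benjamini-Hochberg adjustment over 18828 features. The fit had 6 residual and 9.21 prior degrees of freedom. Fold changes on this scale understate changes of low genes. The script was tested on simulated data. The count of all tested features called, in percent, stands beside each count of members. Values in each library are printed for every tested TIMP and for members with an adjusted p under 0.05, a log2 change of at least 1 from GFP in some line and a group mean of at least 100, and other tested members are given by range. Of each other list at most 3 genes per comparison could be named, those called with the largest changes and a mean of at least 100. One such gene is not reported here. The members and lists were chosen with earlier results of these data known. Exon lengths and overlaps came from GENCODE release 29, and promoters from RefSeq (GRCh38.p14).

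Alternatives were edgeR (TMM or median-of-ratios factors), DESeq2, and limma on the recovered reads scaled by TMM. Others were no filter or a mean of at least 50, a pseudocount of 0.5 or 5, the replicate number as a block, and only the groups compared. The rest left out each library in turn, or GFP replicate 1 and OSK replicate 1 together.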

Additional observations from a re-analysis of the deposited data

How the results depend on the processing

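Over the alternatives, every count of called members stayed within 1.5 times its main value. With libraries left out, the members called against GFP ranged between 12 and 18 (Oct4), 15 and 18 (Sox2), 11 and 17 (Klf4) and 17 and 23 (OSK). Under the other settings they ranged between 12 and 16 (Oct4), 16 and 19 (Sox2), 12 and 15 (Klf4) and 18 and 21 (OSK). Of 68 called changes of members from GFP that were followed, 50 kept their call in every alternative and 18 lost it in at least 1. Of 98 followed calls between other groups, 80 kept it. Some calls from GFP were lost with every library kept. With no filter these were ADAMTS1, ADAMTS7 and ADAMTS9 with Oct4, MMP15 with Sox2, and ADAMTS10, ADAMTS14 and MMP2 with Klf4. In OSK they were ADAMTS6, ADAMTS12 and ADAMTS13. DESeq2 lost ADAMTS9 with Oct4, ADAMTS12 and MMP2 with Klf4, and ADAMTS12 and ADAMTS13 in OSK. The replicate number as a block lost ADAMTS7 and ADAMTS9 with Oct4, ADAMTS15 and MMP15 with Sox2, and ADAMTS14, MMP2 and MMP16 with Klf4. It also lost ADAMTS6 and ADAMTS12 in OSK. Only the groups compared lost ADAMTS9 with Oct4, ADAMTS10, MMP2 and MMP16 with Klf4, and ADAMTS6 in OSK. Under edgeR, TMM lost MMP2 with Klf4, and both factor choices lost ADAMTS12 in OSK. A pseudocount of 5 lost ADAMTS10 with Klf4. No called change turned its direction. Differences that were not called did so in 13 cases, whose cause was not tested. ADAMTS14 in OSK was -0.1437 without GFP replicate 1, -0.1891 without OSK replicate 1 and -0.3568 without both (leave-one-out range -0.1891 to 0.2371). ADAMTS2 with Sox2 was 0.0113 without GFP replicate 2 and 0.0421 without Sox2 replicate 2 (range -0.1065 to 0.0421). MMP17, without GFP replicate 1 or without both libraries that stand apart, was 0.2592 with Oct4 (range -1.1341 to 0.2592), 0.4908 with Sox2 (range -1.204 to 0.4908, 0.4415 without Sox2 replicate 2) and 0.4025 with Klf4 (range -0.9908 to 0.4025). MMP28 with Sox2 was -0.0066 without Sox2 replicate 2 (range -0.0066 to 0.5392).

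Same-numbered libraries did not deviate together (correlations from -0.069 to 0.042, except 0.412 between GFP and OSK), so the numbers were not taken to pair libraries. With the replicate number as a block, members called were 14 for Oct4, 16 for Sox2, 12 for Klf4 and 19 for OSK against GFP. They were 15, 19 and 16 for OSK against Oct4, Sox2 and Klf4, 16 for Oct4 against Sox2, 15 for Oct4 against Klf4, 16 for Sox2 against Klf4 and 23 for any difference. With 2 libraries in each factor line, leaving out 1 assumes that the other varies like the rest. Depth limits the 18 untested members, whose values are mostly a few reads.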

Other observations

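Antisense genes named after members were looked at beside their partners, a choice made after values had been seen. ADAMTS9-AS1 was 60.4 and 17.2 in the Oct4 libraries and at most 7.59 in the other 9. It rose with Oct4 by 3.88 (SE 0.97, adjusted p = 0.00482, limma), while ADAMTS9 itself was 83.6 and 117.9 there. ADAMTS9-AS2 was 45.5 and 38.5 in OSK, 18.9, 17.2 and 15.6 in GFP and 3.37 and 8.56 in Sox2. It rose in OSK by 1.24 (SE 0.43, adjusted p = 0.0298, limma) and fell with Sox2 by 1.49 (SE 0.43, adjusted p = 0.0102). OSK was the highest group for ADAMTS9 too. Sox2 had the lowest mean of ADAMTS9, but its libraries overlapped GFP and the difference was not called (-0.27, adjusted p = 0.338, limma). MMP24OS fell with Oct4 by 0.80 (SE 0.11, adjusted p = 3.53e-05, limma) and in OSK by 0.37 (SE 0.11, adjusted p = 0.0146). Its Sox2 difference was -0.15 (SE 0.11, adjusted p = 0.316), where MMP24 fell.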
